A study of Sus scrofa with 4 samples.

Results

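Among the 35248 rows of the deposited expression table, 2483 are loci that an assembler placed on the genome far from any Ensembl gene. They carry an XLOC identifier, the name that transcript assembly gives to a locus found from the reads, and a plus or minus strand, and they lie more than 10000 bases from every row with an Ensembl pig gene identifier on the same chromosome. The table holds 25880 Ensembl rows and 9368 XLOC rows, of which 3730 have a strand. Of those, 1247 lie 10000 bases or less from an Ensembl row, and the remaining 5638 XLOC rows have no strand. Of the 2483 distant loci, 1322 are on the plus strand and 1161 on the minus strand. The choice rests on identifier, strand and position and uses no measured level.

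Reads that map between annotated genes can come from long non-coding RNA genes, from protein-coding genes that an annotation has missed, from extended ends of known genes, or from transposable elements. Early mammalian embryos are known for such transcripts. The egg stores RNA that the cleavage divisions inherit, genome activation then starts transcription in the embryo's own chromatin, and many of the genes used in this window are expressed in few other tissues and evolve fast, so annotations built mostly from adult tissues can lack them. In the pig, the main activation of the embryonic genome takes place around the 4-cell stage.

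The RNA came from porcine parthenogenetic 4-cell embryos, which start from oocytes that are activated electrically and receive no sperm. In both groups the activated oocytes spent 3 h with cytochalasin B at 7.5 µg/mL, which blocks extrusion of a polar body, and were then cultured in PZM-3 medium with bovine serum albumin at 38.5 °C for 48 h. Samples 1 and 2 of the treated group received 50 µM Bobcat339, a small molecule described as an inhibitor of the TET enzymes, which oxidise 5-methylcytosine in DNA. Samples 1 and 2 of the control group received DMSO, whose dose the labels give in the unit of the inhibitor. The series asks how inhibition of TET alters gene expression in these embryos. Nothing in the labels says that the samples of a group came from separate cultures, so each p-value speaks of the spread among these 4 samples, and that spread may be technical. In such bulk libraries, fewer cells and less RNA per cell cannot be told apart.

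The 4 libraries held between 13568525 and 14681221 counts, so 3 counts, the limit that a count of 0 allows, correspond to 0.204 to 0.221 CPM (counts relative to the library total, scaled by TMM factors in the values below), for counting error only. Of 9 oocyte and embryo markers, 8 were found, and they ranged from 0.831 CPM for ZAR1 to 4279 CPM for BMP15. Their summed level was between 11014 and 12871 CPM per library. Of 9 cumulus and granulosa cell markers, 8 were found, with a summed level of 68.5 to 89.8 CPM, nearly all of it from VCAN, and AMH had 0 counts. The 5 blood and immune markers summed to between 7.63 and 12.2 CPM. The samples of a group differed by more than counting noise, with a chi-square per row of 11.2 between Bobcat339 1 and 2 and 41.4 between the controls.

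The distant loci were spread over all chromosomes. A total of 2390 lay on placed chromosomes and 93 on unplaced sequences, and 47 lay on a sequence with no Ensembl row at all, so that no distance could be given. For the 2436 others the median distance to the nearest Ensembl row was 53214 bases, with quartiles of 24031 and 145284 bases, and 820 loci were more than 100000 bases away. The loci just inside the limit were XLOC_026815, XLOC_007249 and XLOC_031657, at 10009, 10035 and 10049 bases, and those just outside it lay at 9999, 9999 and 9974 bases. The number of distant loci per 100 Ensembl rows was lowest on chromosome 12, at 3.22, and highest on chromosomes 16, 8 and 11, at 22.0, 21.1 and 20.2.

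Many of the loci lay next to each other. Joining loci separated by at most 10000 bases gave 318 chains that held 707 loci, and 271 of these chains were pairs. The remaining 1776 loci stood alone. A total of 379 overlapped a locus on the opposite strand. The sources used here do not say whether the counting used the strand, and the Smart-seq2 method, which made the libraries, does not mark it, so the counts of such overlapping pairs cannot be told apart.

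The assembled transcripts were shorter than those of Ensembl rows and mostly shorter than the stretch of genome they span. The exonic length, taken as the length behind the deposited FPKM (counts scaled to transcript length and library size), had a median of 1446.5 bases over the 2428 loci with counts and ranged from 200 to 32670 bases. The corresponding medians, also over rows with counts, were 1219 bases for stranded XLOC loci near Ensembl rows, 262 bases for unstranded XLOC loci and 3042 bases for Ensembl rows. From first to last base the distant loci had a median span of 14825 bases, close to the 12038 bases of Ensembl rows. In 2301 of them the exonic length was shorter than the span, as in a transcript with introns, and their median length was 1473 bases. In 122 it equalled the span, with a median of 304 bases. All 5638 unstranded XLOC rows had a deposited length equal to their span.

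Length and abundance went together. The 2301 loci with exonic length below their span had a median of 3.99 CPM, and the 122 whose length equals the span had a median of 0.551 CPM. Over the loci with a known length, Spearman's rho between mean CPM and length was 0.80, a description only, since longer loci collect more reads. Per length the relation was weaker, with a rho of 0.38 between mean FPKM and length. Mean CPM and distance to the nearest Ensembl row had a rho of 0.04 over the 2436 loci with a distance.

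**Figure D1:**
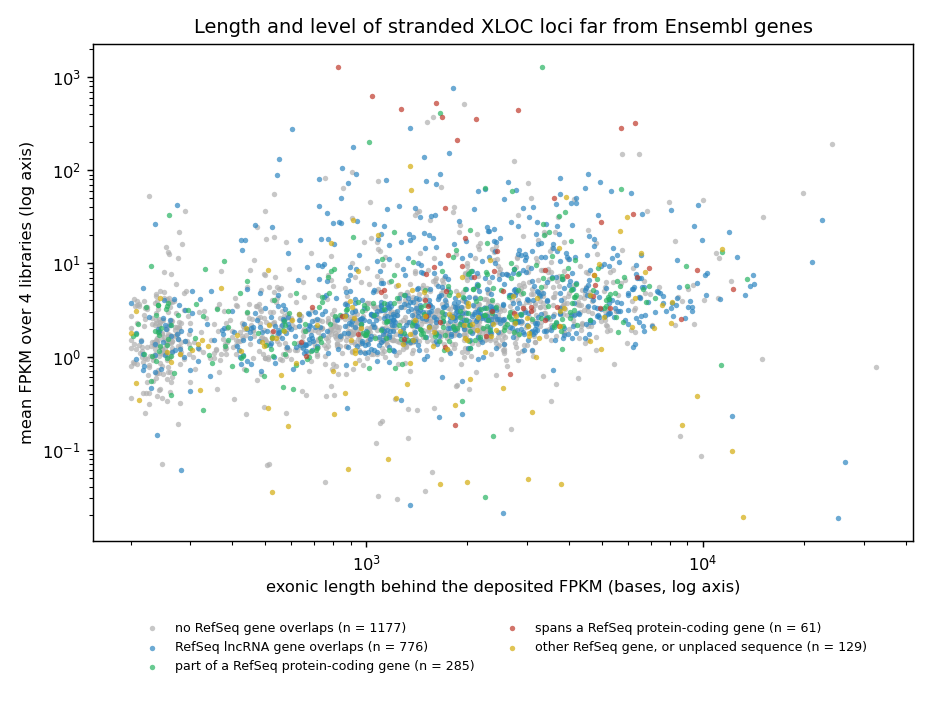
Exonic length behind the deposited FPKM (x, bases, log axis) and mean FPKM over the 4 libraries (y, log axis), 1 point per distant XLOC locus with a count, coloured by its overlap with RefSeq genes. Most loci lie at 1 FPKM or more, 290 reach 10 FPKM and 29 reach 100 FPKM, among them loci that span a RefSeq protein-coding gene.

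Most of these loci were detected in every library. A total of 2328 had at least 1 count in all 4 libraries, and 55 had none. The median level was 3.73 CPM, with quartiles of 1.14 and 11.7 CPM, against 0.787 CPM for Ensembl rows, 3.03 CPM for the near stranded XLOC loci and 0.439 CPM for the unstranded ones. Per length the median was 2.50 FPKM, against 0.429 FPKM for Ensembl rows. Ensembl rows are listed whether or not they have reads, and 5169 had 0 counts in every library, whereas a locus is assembled only where there are reads, so the shares at low levels do not compare like with like. At 1 FPKM or more stood 88.7% of the distant loci and 41.2% of the Ensembl rows. At 10 FPKM or more the order was the other way, with 11.7% against 17.2%. Only 87 distant loci reached 100 CPM and 9 reached 1000 CPM.

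A few loci held much of the signal. The distant loci together took 6.25% and 6.64% of all counts in the Bobcat339 libraries and 5.54% and 6.67% in the controls. The most abundant locus alone held 7.33% of the counts in all distant loci, the 10 most abundant held 30.9% and the 100 most abundant held 66.3%.

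About as many of the loci overlapped a RefSeq gene as did not. The deposited coordinates follow the Sscrofa11.1 assembly and RefSeq's gene list for that assembly was compared with the 2390 loci on placed chromosomes. It overlapped 1184 of them, 49.5%. Any shared stretch counted, however small, and the strands of locus and gene were not compared. The near stranded loci overlapped a RefSeq gene in 53.7% of 1212 cases. A total of 1018 distant loci, 42.6%, had no RefSeq gene within 10000 bases, and their median level was 2.51 CPM, with 18 of them at 100 CPM or more.

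The kind of RefSeq gene went with the level. The 1206 loci that overlapped no RefSeq gene had a median of 2.54 CPM and 2.16 FPKM. The 790 loci that overlapped a long non-coding RNA gene but no protein-coding gene had a median of 6.04 CPM and 3.03 FPKM. Another 292 overlapped a protein-coding gene without covering 50% of any, with a median of 4.17 CPM. In 61 cases the locus covered at least 50% of a RefSeq protein-coding gene, and these had the highest median, 16.6 CPM and 5.21 FPKM. These 61 loci held 17.8% of the counts in all distant loci. RefSeq gives the covered gene a proper symbol in 17 cases and only a LOC number in 44.

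The 2 most abundant loci stood far above the rest. XLOC_033886, on chromosome 9 at 5546062 to 5570228 on the minus strand, overlaps no RefSeq gene and had 3909 and 5121 CPM with Bobcat339 and 4183 and 5246 CPM in the controls. Its exonic length of 24167 bases equals its whole span, its deposited length of 72426 bases exceeds that span, and its mean was 190.7 FPKM. The files do not say how the deposited length was measured. The groups overlapped, and the log2 fold change was -0.06 (SE 0.22). The nearest Ensembl row, unnamed and 18226 bases away, had 0.0728 to 0.358 CPM in the 4 libraries.

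XLOC_017842, on chromosome 2 at 11591667 to 11614617 on the minus strand, had 4420 and 4025 CPM with Bobcat339 and 4836 and 4161 CPM in the controls, a log2 fold change of -0.09 (SE 0.21). The whole locus lies inside LOC102158414, a RefSeq protein-coding gene, of which it covers 36.5%. Its nearest Ensembl row is TCN1, which encodes a vitamin B12 binding protein, 18386 bases away, at 1.5, 1.46, 0.717 and 0.358 CPM in the same order of libraries. At 1301 FPKM it was level with XLOC_016500, its neighbour on the plus strand, which also had a mean of 1301 FPKM and coincides with the protein-coding gene LOC110259712 over 99.6% of either. XLOC_016500 had 1224 and 905 CPM with Bobcat339 and 1025 and 1139 CPM in the controls. These were the only distant loci above 1000 FPKM. They belong to a chain of 5 loci between 11519113 and 11614617 that summed to 5451 CPM, and the other members of the chain had 0.359, 2.0 and 15.4 CPM.

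A stretch of chromosome 8 held 3 more of the 10 most abundant loci. XLOC_032039 (44031670 to 44097815, minus strand) had 1954 and 2058 CPM with Bobcat339 and 2316 and 1702 CPM in the controls. It covers the whole of 3 RefSeq protein-coding genes, LOC102163658, LOC110262006 and LOC110261945. Its nearest Ensembl row, unnamed and 17427 bases away, had 6.13 to 10.4 CPM. XLOC_032042 (44144824 to 44149337, minus strand) covers LOC100513415 and had 1258, 1284, 1430 and 1069 CPM in Bobcat339 1 and 2 and control 1 and 2.

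XLOC_031448 (44173127 to 44197598, plus strand) covers LOC100513607 and LOC100621782 and had 1529, 1673, 1869 and 1401 CPM in that order. In all 3 loci control 1 was the highest library and control 2 the lowest, with both Bobcat339 libraries between them. Of the 6 genes covered, 5 are between 1350 and 1386 bases long. Whether they are copies that share reads was not tested, and if they do, the split of counts among these loci is uncertain. The chain of 9 loci from 44121249 to 44197598, the largest in number, summed to 3100 CPM, of which XLOC_031448, XLOC_032042 and XLOC_031447 gave nearly all. The chain of 4 just before it summed to 2031 CPM.

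The remaining members of the top 10 came from chromosomes 13, 15 and 17. XLOC_014620 (chromosome 17, 53148046 to 53150045, plus strand) overlaps the long non-coding RNA gene LOC102157885 over 98.7% of its length and had 1716 and 1445 CPM with Bobcat339 and 899 and 1427 CPM in the controls. Its log2 fold change of 0.44 (SE 0.25) was the largest among the 10, and control 1 stood apart, with both Bobcat339 libraries above both controls, the second only just. Leaving out control 1 gave 0.15, and leaving out control 2 gave 0.85 with an edgeR adjusted p of 0.00275. XLOC_012652 (chromosome 15, 81242106 to 81261913, minus strand), with an exonic length of 19808 bases equal to its span, a deposited length of 36751 bases and no RefSeq gene, had 1112 and 1178 CPM with Bobcat339 and 863 and 1389 CPM in the controls.

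XLOC_007352 (chromosome 13, 72831528 to 72834945, plus strand) had 974 and 1182 CPM with Bobcat339 and 1071 and 849 CPM in the controls. XLOC_007532 (chromosome 13, 114452884 to 114459349, plus strand) had 1037 and 941 CPM with Bobcat339 and 1213 and 690.3 CPM in the controls. Neither overlaps a RefSeq gene. Without control 1 the log2 fold change of XLOC_007532 was 0.52, with an edgeR adjusted p of 0.0257. With all 4 libraries, at all 10 loci the smallest unadjusted p of edgeR's quasi-likelihood test was 0.0953 and the adjusted p was 0.999.

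**Figure D2:**
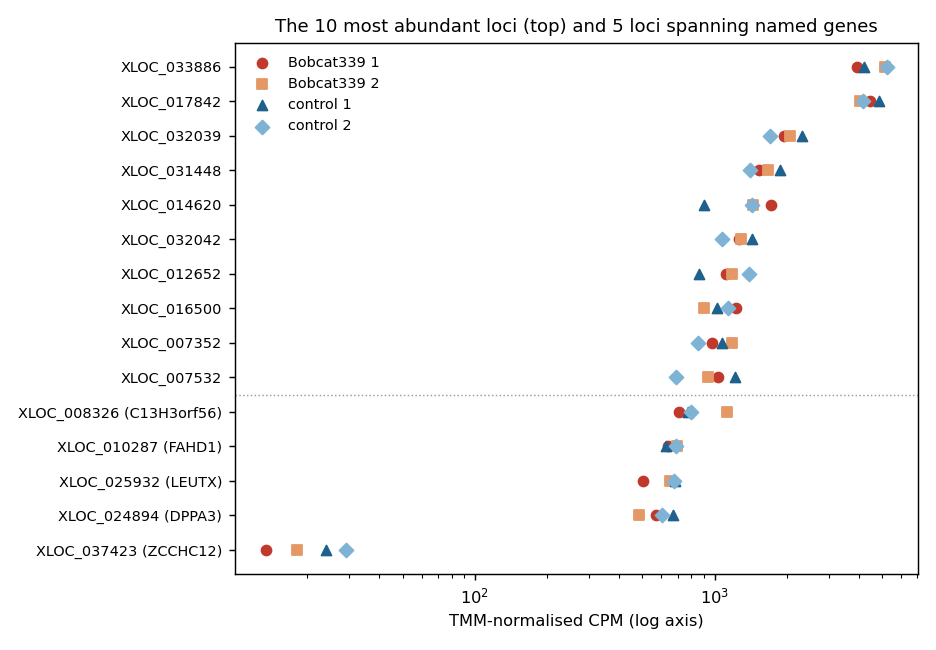
Level (x, TMM-normalised CPM, log axis) of the 10 most abundant distant loci, above the dotted line, and of 5 loci that span a named RefSeq protein-coding gene, below it, 1 symbol per library. Of the 17 loci that span a named gene, the 5 shown are the 4 that reach 100 CPM and XLOC_037423. The last was the only one of the 17 with an unadjusted p under 0.05 in edgeR's test. Above the line only XLOC_014620 has both Bobcat339 libraries on 1 side of both controls, and below it XLOC_024894, XLOC_025932 and XLOC_037423 do. Over all 17, both Bobcat339 libraries are below both controls in 5 and above them in 1.

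The 17 loci that span a named protein-coding gene were singled out after their values were seen. Their mean level ran from 1.75 CPM at XLOC_031584 (ANXA3) to 851 CPM at XLOC_008326 (C13H3orf56). In 12 of the 17 the gene also fills at least 50% of the locus, so that locus and gene coincide in position. Their strands were not compared.

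XLOC_024894 (chromosome 5, 62861456 to 62868186, minus strand) contains the whole of DPPA3, with 98.6% of the locus inside the gene. DPPA3 is a maternal protein known in the mouse for shielding 5-methylcytosine of the maternal genome from TET3. No other row of the table carried its name. The locus had 569.8 and 483.3 CPM with Bobcat339 and 672.6 and 602.4 CPM in the controls, means of 527 ± 61.2 and 638 ± 49.6 CPM (SD, n = 2). Both Bobcat339 libraries lay below both controls, with a log2 fold change of -0.28 (SE 0.24, edgeR adjusted p = 0.999) and a 95% interval from -0.78 to 0.23. It was -0.41 without Bobcat339 1 and -0.11 without Bobcat339 2.

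XLOC_025932 (chromosome 6, 48240536 to 48249434, plus strand) covers 97.4% of LEUTX, a paired-like homeobox gene that is known from human embryos at genome activation. It too had no named row elsewhere. Its level was 503.5 and 653.8 CPM with Bobcat339 and 685.0 and 674.0 CPM in the controls. Again both Bobcat339 libraries were below both controls, the second of them by a few percent, and the log2 fold change was -0.23 (SE 0.24, edgeR adjusted p = 0.999). It was -0.06 without Bobcat339 1 and -0.39 without Bobcat339 2.

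XLOC_037423 (chromosome X, 97379235 to 97384376, plus strand) covers 99.8% of ZCCHC12, a zinc finger transcriptional co-activator. It had 13.5 and 18.1 CPM with Bobcat339 and 24.1 and 29.1 CPM in the controls. Its log2 fold change of -0.75 (SE 0.33) was the only one of the 17 with an unadjusted p under 0.05, at 0.0370, where 4.0% of all tested rows had such a p, and the edgeR adjusted p was 0.999.

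At XLOC_008326 and XLOC_010287 the gene is only a small part of the locus, 4.26% for C13H3orf56 and 17.2% for FAHD1, a mitochondrial hydrolase. They had 711 to 1122 CPM and 626 to 696 CPM over the 4 libraries. FAHD1 also had an Ensembl row on chromosome 3, at 14.2 CPM, so that the origin of the reads is uncertain if the copies are alike. The other named genes include CYFIP1 (67.0 CPM), a subunit of the actin-regulating WAVE complex, the transcription factor MAF (64.6 CPM), RFPL4B (62.6 CPM) and EEA1 (45.7 CPM), a marker of early endosomes. MAF and TMCC3 had Ensembl rows of their own as well, at 12 and 9.68 CPM. Over the 17 loci the log2 fold change was above 0 in 7, where 47.1% of all tested rows were, and below 0 in 10, with a median of -0.06. Both Bobcat339 libraries were below both controls in 5 and above them in 1, against 16.0% and 13.3% of all tested rows.

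The loci farthest from any Ensembl row lay close together on chromosome 8. XLOC_032089 (58335622 to 58404998, minus strand) was 1960317 bases from the nearest Ensembl row, XLOC_032088 (58301491 to 58307560, minus strand) 1943610 bases and XLOC_031498 (58262962 to 58354192, plus strand) 1905081 bases. XLOC_031498 overlaps both of the others. It and XLOC_032089 overlap the long non-coding RNA genes LOC110262109 and LOC106504673, and XLOC_032088 lies within LOC110262109. XLOC_032089 had 26.6 and 27.8 CPM with Bobcat339 and 21.1 and 31.6 CPM in the controls. XLOC_031498 had 9.88 and 10.7 CPM against 12.3 and 16.3 CPM, with both Bobcat339 libraries below both controls and a log2 fold change of -0.47 (SE 0.34). XLOC_032088 had 4.5 and 6.34 CPM against 3.80 and 3.58 CPM, on the other side of the controls, with 0.55 (SE 0.42). None of these differences passed the test, with edgeR adjusted p = 0.999 at each.

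Among tested loci the longest, XLOC_012147 (chromosome 15, 107479102 to 107511771), had an exonic length of 32670 bases, equal to its span, a deposited length of 59920 bases and 24.4 and 24.7 CPM with Bobcat339 and 20.2 and 31.7 CPM in the controls, a mean of 0.772 FPKM. XLOC_024580 (chromosome 5, 14529287 to 14560274) had 26471 bases and 2.04 and 3.13 CPM against 1.58 and 1.0 CPM. XLOC_033886, described above, came next. Only 33 distant loci were longer than 10000 bases, and 441 were shorter than 500.

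Against this background of levels, no distant locus differed between Bobcat339 and control at an adjusted p of 0.05. Of the 2483 loci, 2064 passed the filter on low counts and were tested together with all 18481 rows that passed it, and edgeR's quasi-likelihood test called 0 of them, as it called 0.0% of all rows. The smallest adjusted p among the loci was 0.355. DESeq2 called 0 of the loci and 5 of the 30007 rows it tested, 0.0167%, and limma-voom called 0 of the loci and 0.0% of all rows. At an unadjusted p under 0.05 stood 61 loci with edgeR, 2.96% of those tested, against 4.0% of all tested rows. With DESeq2 they numbered 45, where 1.86% of all rows had such a p, and with limma-voom 62, where 3.5% did. The 61 comprised 30 higher with Bobcat339, where the share over all rows was 1.36%, and 31 lower, where it was 2.64%.

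The sizes of the differences were small at all but low levels. The median log2 fold change was 0.08, against -0.02 over all tested rows. It was above 0 at 1227 loci, 59.4%, where the share over all tested rows was 47.1%. A difference of at least 2-fold in fitted level was seen at 108 loci, 49 higher and 59 lower, 5.23% against 5.51% of all rows. Among the 682 loci with a mean of at least 10 CPM it was seen at only 3, named here after their values were seen. XLOC_037556 on chromosome X had 52.7 and 145 CPM with Bobcat339 and 36.6 and 59.4 CPM in the controls. XLOC_033699 on chromosome 9 had 14.2 and 25.4 against 10.5 and 7.80 CPM. XLOC_031580 on chromosome 8 had 1.63 and 38.5 against 1.29 and 4.37 CPM, high in Bobcat339 2 alone.

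**Figure D3:**
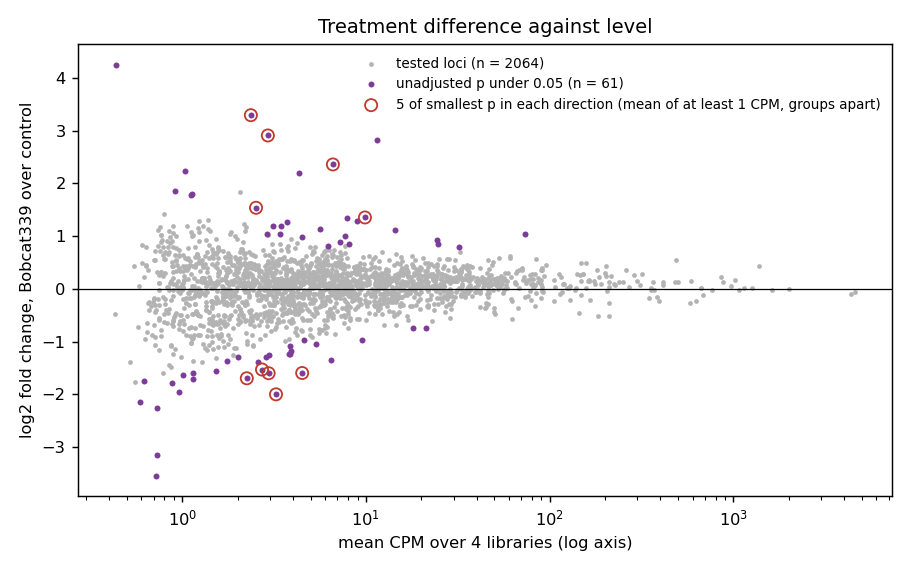
Log2 fold change of Bobcat339 over control (y) against mean CPM (x, log axis) for the 2064 tested distant loci. Purple points have an unadjusted p under 0.05 (61 loci) and red rings mark the 10 with the smallest p among loci of at least 1 CPM whose groups do not overlap. Fold changes of 1 or more in size are found almost wholly below 10 CPM.

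The largest pattern over the distant loci lay between the control samples. Control 1 was the lowest of the 4 libraries at 1161 of the 2064 tested loci, 56.2%, and control 2 the highest at 43.6%. Over all tested rows these shares were 31.0% and 29.9%. For near stranded XLOC loci control 1 was the lowest at 45.5%, for Ensembl rows at 27.5% and for unstranded XLOC loci at 20.2%. The difference from Ensembl rows was present at matched levels. Between 10 and 100 CPM control 1 was the lowest at 71.8% of 595 distant loci and at 28.2% of 5443 Ensembl rows. The near stranded XLOC loci were closer to the distant ones, with control 1 the lowest at 61.2% of 245 in that range. Between 1 and 10 CPM the shares were 50.6% of 1234 distant loci, 39.9% of 679 near stranded loci and 25.9% of 4849 Ensembl rows. Scaling by library totals gave 59.5% over all tested distant loci and DESeq2 size factors gave 58.3%.

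The per-library level showed the same order. The median over the loci of log2 CPM minus the mean of the 4 libraries was 0.02 and 0.09 for the Bobcat339 libraries, -0.26 for control 1 and 0.19 for control 2. Over all tested rows it was between -0.00019 and 0.03, but TMM scaling on these same rows draws such medians towards 0. Near stranded XLOC loci had -0.19 for control 1 and 0.16 for control 2. Unstranded XLOC loci had the opposite order, with 0.12 for control 1 and -0.06 for control 2. Among the distant loci control 1 was low in each kind of RefSeq overlap. Control 1 stood at -0.31 for loci on long non-coding RNA genes, -0.24 for loci with no RefSeq gene and -0.29 for loci that are part of a protein-coding gene, but at -0.11 for the loci that span one. At 17.1% of the loci with at least 1 CPM the 2 controls differed by more than 2-fold, against 5.95% for the 2 Bobcat339 libraries. These shares were 16.4% and 7.9% among near stranded XLOC loci, 31.5% and 19% among unstranded ones, and 11.8% and 4.59% among Ensembl rows.

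**Figure D4:**
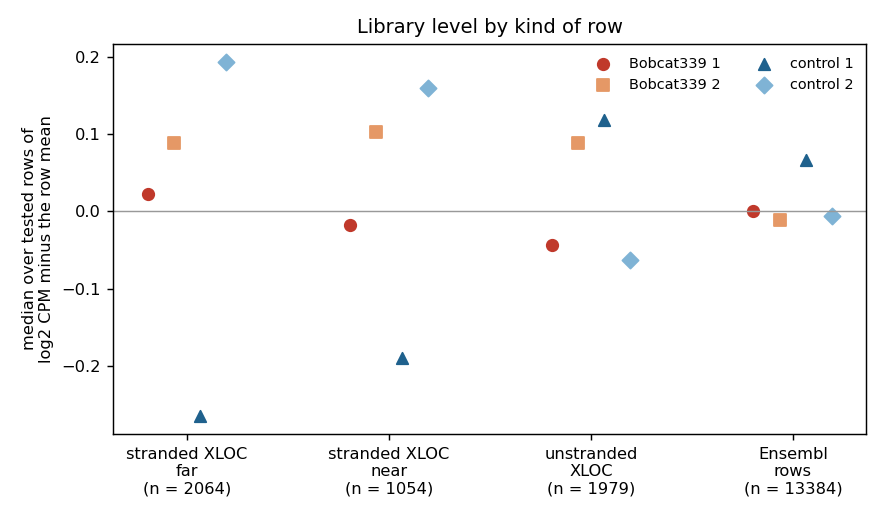
Median over tested rows of log2 CPM minus the row's mean over the 4 libraries (y), for each library and kind of row (x). For distant stranded XLOC loci control 1 lies at -0.26 and control 2 at 0.19, with both Bobcat339 libraries between them. For near stranded XLOC loci control 1 lies at -0.19 and control 2 at 0.16, and for unstranded ones control 1 lies above control 2. All 4 libraries of the Ensembl rows, which are most of the rows behind the TMM scaling, lie within 0.1 of 0.

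The treatment difference of the loci as a group therefore depended on which control was used. Without control 1 the median log2 fold change was -0.12 and 39 loci passed edgeR's adjusted p of 0.05, 24 higher and 15 lower with Bobcat339, where 2.92% of all rows passed. Without control 2 the median was 0.38 and 42 passed, 32 higher and 10 lower, where 2.47% of all rows passed. In these fits the lone control is assumed to vary as the Bobcat339 samples do. At an unadjusted p under 0.05 the loci numbered 85 higher and 146 lower without control 1, where 8.22% and 5.2% of all rows did, and 357 higher and 72 lower without control 2, where 7.2% and 8.97% did. Only 6 loci passed in both fits, each with the same sign in both. Those higher with Bobcat339 were XLOC_014243, XLOC_005406, XLOC_024076, XLOC_031580 and XLOC_036600, and XLOC_027189 was lower. At XLOC_036600 the levels were 0.681 and 13.6 CPM with Bobcat339 and 0.788 and 2.29 CPM in the controls, so Bobcat339 1 was the lowest library. Both fits use the same Bobcat339 libraries, so a shared sign is no separate support.

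The share of all counts in these loci did not pass a test either. The distant loci held 6.44 ± 0.279% of counts with Bobcat339 and 6.11 ± 0.796% in the control (SD, n = 2), a difference of 0.336 percentage points with p = 1 in a two-sided exact permutation test. With 2 samples a group that test cannot go below 0.333. Without control 1 the difference was -0.227 percentage points. Leaving out the 10 most abundant loci gave 4.33% and 4.64% with Bobcat339 and 3.63% and 4.75% in the controls, with control 1 again the lowest.

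At 334 tested loci, 16.2%, both Bobcat339 libraries were above both controls, against 13.3% of all rows, and at 244, 11.8%, both were below, against 16.0%. From these the 5 with the smallest p in each direction and a mean of at least 1 CPM were named, and all have a mean under 10 CPM. XLOC_031580, whose groups overlap, and XLOC_038906, with a mean below 1 CPM, had small p as well but fall outside this rule. None of the 10 passed the adjusted p of edgeR, which lay between 0.355 and 0.999. The fits with a control left out reuse libraries on which these 10 loci were chosen, so they are no separate test of them.

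XLOC_014243 (chromosome 17, 339364 to 343159, plus strand), with no RefSeq gene, had the smallest p. Its counts were 47 and 98 with Bobcat339 and 16 and 3 in the controls, or 3.20 and 7.14 against 1.15 and 0.215 CPM, the last of these at the level of 3 counts. The log2 fold change was 2.91 (SE 0.65, edgeR adjusted p = 0.355) and its 95% interval ran from 1.53 to 4.28.

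XLOC_005406 (chromosome 12, 8243880 to 8281709, plus strand), within the large protein-coding gene LOC102165318, had 3.27 and 18.9 CPM with Bobcat339 and 1.15 and 3.15 CPM in the controls. Bobcat339 1 was level with control 2, and the fold change of 2.36 on the log2 scale (SE 0.64) came from Bobcat339 2. Without Bobcat339 2 it was 0.64. XLOC_024076 (chromosome 5, 40195710 to 40198627, plus strand) had the same shape, with counts of 15 and 104 against 0 and 12. Its fitted log2 fold change was 3.29 (SE 0.95), and it was 1.27 without Bobcat339 2. Without control 2 the lone control has 0 counts, and the value of 8.91 depends on the prior count.

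XLOC_007992 (chromosome 13, 6786031 to 6791974, minus strand) had 9.54 and 18.9 CPM with Bobcat339 and 6.23 and 4.87 CPM in the controls, a log2 fold change of 1.35 (SE 0.40). XLOC_000519 (chromosome 1, 122616323 to 122618117, plus strand) was the most even of the 5, with 4.09 and 3.42 CPM against 1.43 and 1.15 CPM and a log2 fold change of 1.54 (SE 0.50). It lies 12580 bases from an Ensembl row. Apart from XLOC_005406 none of these 5 overlaps a RefSeq gene.

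XLOC_027189 (chromosome 6, 41223424 to 41226819, minus strand) was the lower locus with the smallest p. Its counts were 26 and 11 with Bobcat339 and 73 and 72 in the controls, or 1.77 and 0.801 against 5.23 and 5.15 CPM. The controls were alike, and the log2 fold change was -2.00 (SE 0.50, edgeR adjusted p = 0.680) and its 95% interval ran from -3.06 to -0.94. It stayed between -2.69 and -1.50 with each library left out.

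XLOC_024447 (chromosome 5, 104420677 to 104423258, plus strand) had 3.00 and 1.46 CPM with Bobcat339 and 6.23 and 7.30 CPM in the controls, a log2 fold change of -1.60 (SE 0.45). XLOC_004484 (chromosome 11, 20933773 to 20938546, plus strand) had 1.09 and 1.02 against 4.23 and 2.65 CPM, with the Bobcat339 libraries nearly equal and a log2 fold change of -1.70 (SE 0.54). At 10095 bases from an Ensembl row it lies just inside the distance limit. XLOC_002633 (chromosome 1, 273603679 to 273606877, minus strand) had 0.749 and 2.19 against 3.58 and 5.30 CPM, and XLOC_010528 (chromosome 14, 27328607 to 27334323, minus strand) had 1.91 and 0.874 against 5.23 and 2.86 CPM. None of the 5 lower loci overlaps a RefSeq gene.

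**Figure D5:**
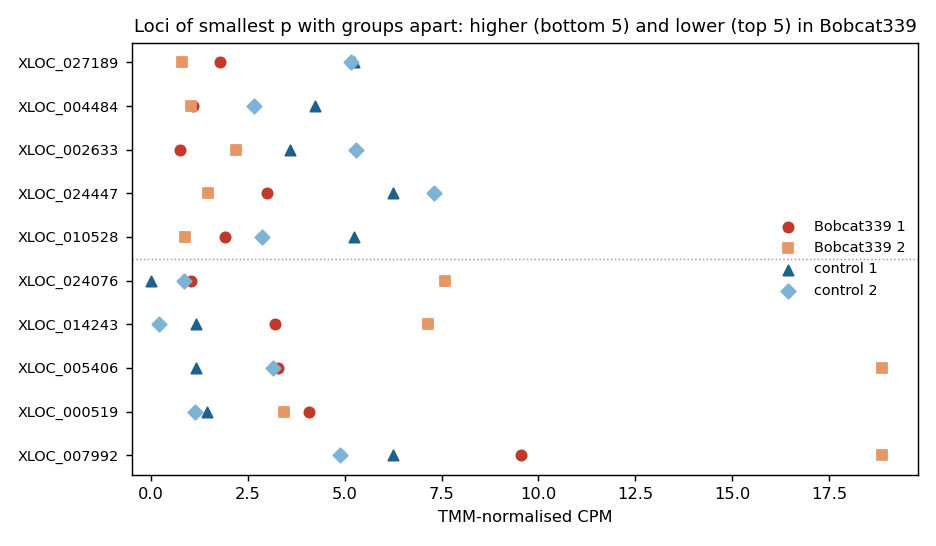
TMM-normalised CPM (x) in each library for the named loci with the smallest p among those of at least 1 CPM whose groups do not overlap, 5 higher with Bobcat339 below the dotted line and 5 lower above it. At XLOC_005406 and XLOC_024076 Bobcat339 2 alone lies apart, while at XLOC_000519 and XLOC_027189 both libraries of each group lie close together.

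As edgeR called 0.0% of all tested rows, no kind of RefSeq overlap could hold a called locus. Among the 946 tested loci that overlap no RefSeq gene, 41 had an unadjusted p under 0.05 in edgeR's test. Of these, 18 were higher and 23 lower, where 1.36% and 2.64% of all rows were. The median log2 fold change of the 946 was 0.08. The 718 on long non-coding RNA genes but no protein-coding gene had 5 higher and 4 lower at that p, with a median of 0.10. The 59 tested loci that span a protein-coding gene had 1 higher and 2 lower, with a median of -0.06 and 20 above 0. The 54 tested loci whose length equals the span had 2 at that p, where 4.0% of all tested rows did.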

How the data were processed

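RNA sequencing libraries of 2 Bobcat339 and 2 control samples were grouped by the labels' titles. The authors deposited raw read counts per row and FPKM values per library, per the file headers, with a chromosome, start, end, strand and length. HISAT2 2.0.5, Trimmomatic, HTSeq and DESeq2 1.16.1 are named in the submitters' processing notes without a role, as is the build Sscrofa10.2. The deposited coordinates overlap the RefSeq gene of the same name in Sscrofa11.1 for 99.943% of 13970 symbols and are given as that build. For the assembler behind the XLOC loci, the name is not given in the sources used.

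In 120 rows start exceeds end, as numbers sorted as text would, and 9 of these are distant loci. Start and end were put in numeric order. The deposited FPKM implies a length shorter than the deposited one at 913 distant loci, and that length was used as exonic length. Of the distant loci, 2428 had counts and therefore a known length of this kind.

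Counts were fitted over the whole table in R 4.3.3 with the quasi-likelihood test of edgeR 4.0.16 (glmQLFit, glmQLFTest), after TMM scaling and filterByExpr (minimum count 10). Benjamini-Hochberg adjustment ran over 18481 rows, with a threshold of 0.05. CPM are TMM-normalised. The filter removed 419 of the distant loci. The method was tested on simulated data. Alternatives were DESeq2 1.42.0, limma-voom 3.58.1, other scalings, filters and distances, a replicate block and leaving out each library. Chosen after the data were seen were the loci with no RefSeq overlap and start and end as written.

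Named loci were the 10 most abundant, the 5 with the smallest p in each direction among tested loci with a mean of at least 1 CPM and groups that do not overlap, the 3 longest and the 3 farthest tested loci, with the nearest Ensembl row of the top 3. Loci spanning named genes were added. The loci and lists were chosen with earlier results of these data known. No genome sequence was used here, so no sequences are shown.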

Additional observations from a re-analysis of the deposited data

How the results depend on the processing

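The 2-against-2 design limits what could be seen, and 419 loci were too low to test. DESeq2, limma-voom, both other scalings and both filters gave 0 called loci, as did leaving out either Bobcat339 library. The 3 other distance rules and the loci without RefSeq overlap were read from the main fit. As that fit called 0.0% of all rows, they could hold no called locus and test nothing further. With each library left out, called loci ranged from 0 to 42, loci at an unadjusted p under 0.05 from 28 to 429, the median log2 fold change from -0.12 to 0.38 and the difference in the share of counts from -0.227 to 0.899 percentage points. The cause was not tested.

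The labels give both groups the numbers 1 and 2, and nothing in them says that a number is a shared batch. Over the 18481 tested rows, the log2 difference between Bobcat339 1 and 2 had a correlation of 0.159 with that between control 1 and 2. As each group gives only 1 such difference, this does not settle whether a number is a shared batch. With the replicate number as a block, edgeR called 7 loci, 5 higher and 2 lower (0.238% of all rows), and 94 had an unadjusted p under 0.05, where 5.38% of all rows did. Of the 10 loci named by p, 4 were called with the block, with edgeR adjusted p of 0.000571 for XLOC_024076, 0.00058 for XLOC_014243, 0.000938 for XLOC_005406 and 0.0187 for XLOC_027189. The block fit reuses the libraries on which these 10 loci were chosen, so it is no separate test of them. At XLOC_024076 and XLOC_005406 Bobcat339 2 alone lies apart.

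A distance of over 50000 bases left 1308 loci, of which 1090 were tested. Of these, 29 had an unadjusted p under 0.05 in edgeR's test, where 4.0% of all tested rows did. Coordinates as written gave 2484 loci.

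Fold changes near 0 changed sign. That of XLOC_032039 was 0.0225 with DESeq2, 0.0171 with its size factors in edgeR, 0.0144 with limma-voom, 0.0146 with the replicate block, 0.0267 without scaling, 0.0270 without a filter and -0.178 to 0.237 with a library left out. That of XLOC_016500 was 0.00324 with DESeq2, 0.0113 without a filter and -0.26 to 0.22 with a library left out. With a library left out, values ran from -0.167 to 0.0223 for XLOC_017842, -0.19 to 0.19 for XLOC_031448, -0.14 to 0.25 for XLOC_032042, -0.28 to 0.44 for XLOC_012652, -0.26 to 0.52 for XLOC_007532, -0.23 to 0.14 for XLOC_033886, -0.10 to 0.51 for XLOC_008326, -0.0527 to 0.121 for XLOC_010287, -0.22 to 0.40 for XLOC_032089 and -0.37 to 0.31 for XLOC_012147.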

Other observations

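Chromosome Y carried 14 of the distant loci, although these embryos arose without sperm. At 10 of the 14 the mean level was at least 1 CPM. XLOC_038883 (20967258 to 20975637, plus strand), which overlaps no RefSeq gene, had 79.3 and 81.2 CPM with Bobcat339 and 80.8 and 41.7 CPM in the controls, so that control 2 alone stood lower. XLOC_038918 (8130344 to 8140358, minus strand), which covers a RefSeq protein-coding gene, had 23.8 and 20.1 CPM with Bobcat339 and 15.7 and 26.1 CPM in the controls. Of the 79 Ensembl rows on chromosome Y, 58 had 0 counts in every library and 6 had a mean of at least 1 CPM, the highest 15.9 CPM. Whether reads at these loci come from similar sequence on other chromosomes was not tested.

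XLOC_038906 (chromosome Y, 2262668 to 2274008, minus strand), which overlaps a long non-coding RNA gene, had counts of 1 and 2 with Bobcat339 and 21 and 16 in the controls. Both Bobcat339 libraries were at or under the level of 3 counts, and the edgeR adjusted p was 0.699. It was singled out after its values were seen.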
